A study of Mus musculus with 27 samples.

Results

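The comparison set 12 subcutaneous tumors against 3 pieces of normal subcutaneous tissue (SubQ), which are all 15 tissue samples among the 27 samples of the study, taken by their titles. The tumors were grown from 4 immortalized mouse neural stem cell lines, with 3 tumors each of lines 1, 31, 59 and 123. By the labels the tumors of lines 31 and 59 were p53 mutant, and those of lines 1 and 123 were WT, as was the SubQ tissue. Tumors and SubQ tissue shared 1 host label, CB17/ICR-Prkdcscid/IcrCrl, an immunodeficient strain that lacks mature T and B lymphocytes. Each line is a single line, so its 3 tumors share their cells of origin, and p53 status, which differs only between lines (2 lines of each), was not tested. The labels used here give no age of the hosts. They call the arrays biological replicates without saying whether any came from the same mouse, so p-values measure only the spread between these samples. The SEs and p-values for tumors against SubQ tissue treat the 12 tumors as independent, which tumors of 1 line are not, so they look firmer than the design allows. They also assume the same spread in both groups. A fit that let the spread differ weighted a tumor array at 1.33 and a SubQ array at 0.32. The printed SEs are thus too small for genes that spread more among the 3 SubQ arrays. Total RNA was hybridised to Affymetrix arrays, 1 array per sample, and its values are RMA expression levels on the log2 scale, as the authors deposited them. The comparison asks how the tumors differed from the normal tissue of the site where they grew.

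Subcutaneous tissue is the loose layer under the skin, made of fat cells, fibroblasts, vessels, nerves and resident immune cells. In the mouse a sheet of skeletal muscle runs along it, and a piece of it can carry epidermis and hair follicles. A solid tumor holds the grafted cells together with host cells that enter it, mostly macrophages, fibroblasts and vessel cells, and it lays down a matrix of its own. In RNA of whole tissue, fewer cells of a type and less RNA of a gene per cell cannot be told apart. For each of 19937 genes the level was given on the log2 scale and as a rank percentile, the place of the gene among all genes of its array, where 100 is the top.

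The SubQ arrays stood apart from the tumor arrays in range, and this touches every value below. The distance between 2 kinds of genes shows it: 1196 odorant and vomeronasal receptor genes, which belong to sensory neurons of the nose, and 20 genes that all cells use, such as Actb and Ppia. The median of the second set lay 4.99 to 6.10 above that of the first in the tumors, and 1.27, 1.19 and 2.28 above it in SubQ replicates 1, 2 and 3, all in log2 units. Across genes a tumor array correlated with another at a Pearson r of 0.936 to 0.985, SubQ arrays with each other at 0.656 to 0.720, and tumor with SubQ arrays at 0.495 to 0.720. SubQ replicate 3 was the nearest to the tumors (0.668 to 0.720) and replicate 1 the farthest (0.495 to 0.541). Receptor genes give a rough floor: 12524 of 19937 genes averaged above the 95th percentile of the receptor genes in tumors, against 5620 in SubQ tissue. Whether RNA quality, labelling or tissue makeup goes with this range was not tested.

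**Figure D1:**
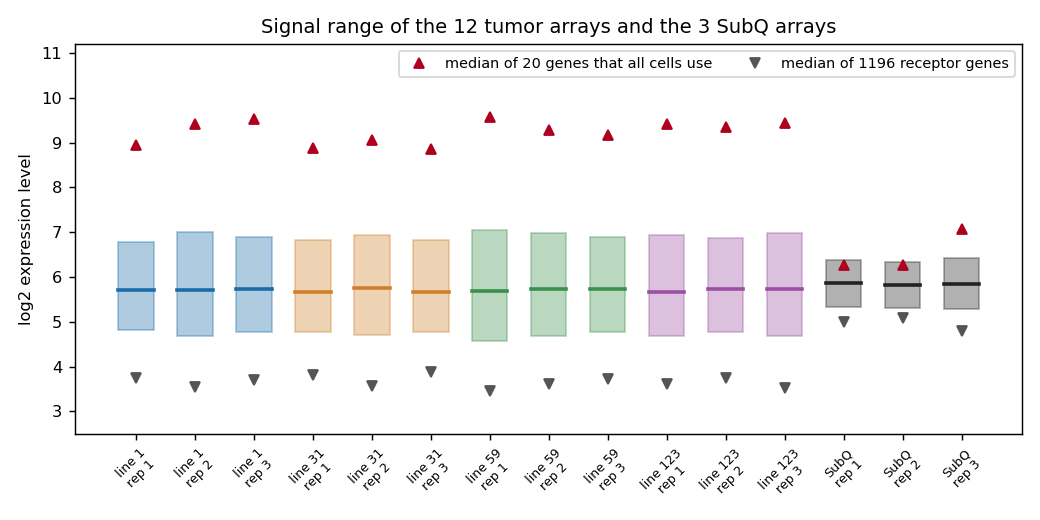
Log2 expression level (vertical axis) on each of the 12 tumor arrays and the 3 SubQ arrays. Boxes span the quartiles of all 19937 genes with the median as a line, triangles pointing up are the median of the 20 genes that all cells use, and triangles pointing down the median of the 1196 receptor genes. The marks lie 4.99 to 6.10 apart in tumors and 1.19 to 2.28 apart in SubQ tissue.

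For this reason a gene is said to have risen or fallen below only where limma called it at an adjusted p under 0.05 on the log2 scale and on the rank scale, in the same direction, and where no tumor overlapped any SubQ array on either scale. Of 19937 genes, 2557 rose in tumors (12.8%) and 2852 fell (14.3%), while the log2 scale alone called 6121 higher (30.7%) and 9135 lower (45.8%). Leaving out SubQ replicate 1, 2 or 3 gave 3086, 3162 or 3496 genes that rose and 3786, 4066 or 4173 that fell, since fewer arrays overlap less. A narrower set of 628 genes that rose (3.15%) and 1458 that fell (7.31%) kept their calls in 2 further fits, and these are said below to have held. One of these fits weighted the arrays by the spread of their group, and alone gave 1511 that rose (7.58%) and 1501 that fell (7.53%). The other, called the span scale, set each array to 0 at the median of the receptor genes and to 1 at the median of the genes that all cells use, and alone gave 913 that rose (4.58%) and 3197 that fell (16.0%). A last setting centred each array on the genes that all cells use, which moved all differences down by about the same amount, put the receptor genes at a median difference of -3.96 and left 85 genes that rose (0.426%). List medians under this centring are given beside the others, since it turns most increases round. Counts in a list are read against the shares over all genes, so that a list in which 2 or 3 of about 20 members moved lies near the background. The lists and their members were chosen with earlier results of these data known. A count above these shares therefore describes the members and is not a test of the list. Of the 20 genes that all cells use, 13 rose, so increases in a list are read against that share too. No other list had a larger share that rose.

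**Figure D2:**
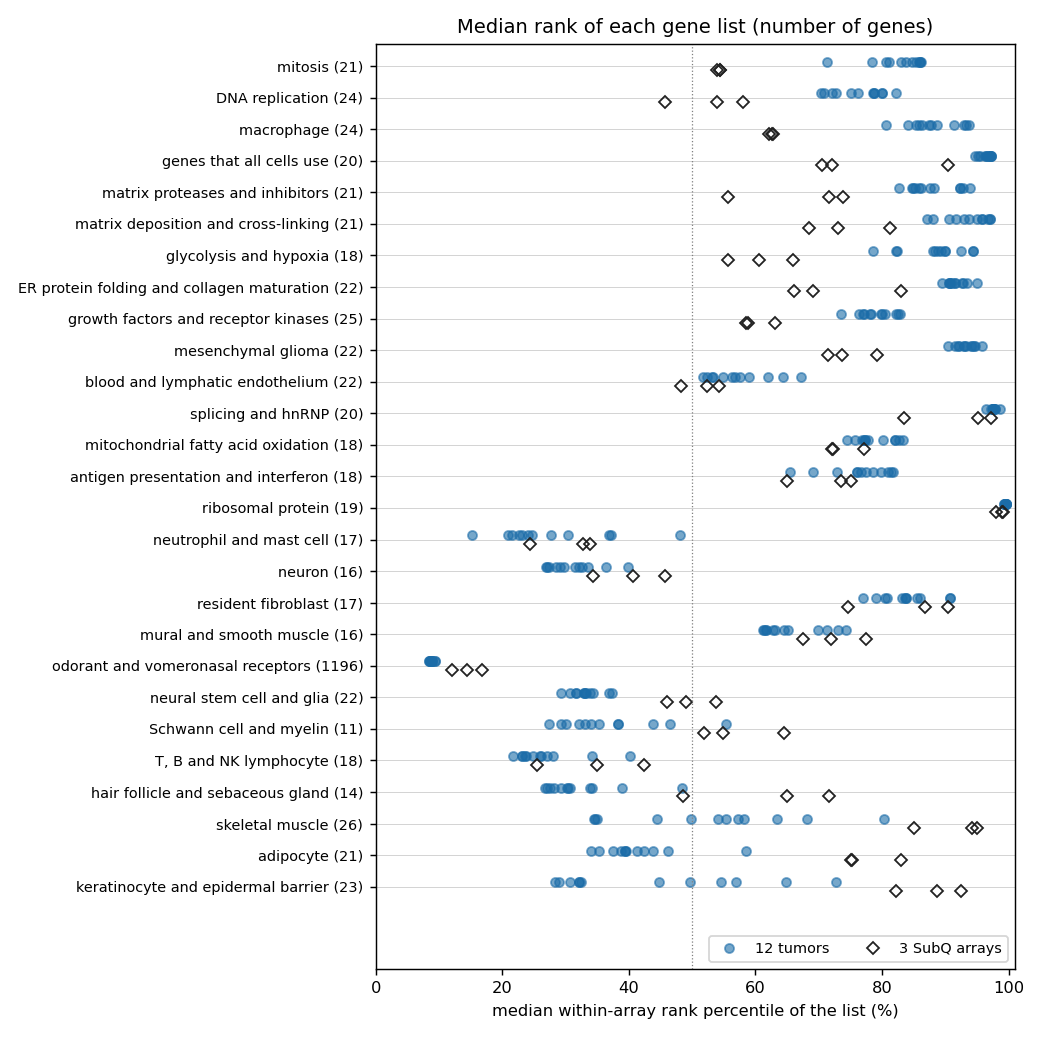
Median within-array rank percentile (horizontal axis, in percent) of 26 gene lists and of the receptor genes (vertical axis, number of genes measured in parentheses) on each of 12 tumor arrays (filled circles) and 3 SubQ arrays (open diamonds). Macrophage, mitosis, matrix and mesenchymal glioma genes ranked higher in every tumor than in every SubQ array, and skeletal muscle, adipocyte and keratinocyte genes ranked lower. The genes that all cells use also ranked higher in every tumor, as did the replication, ER folding, glycolysis, growth factor and ribosomal lists. Hair follicle, neural stem cell and receptor genes also ranked lower.

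High ranks were partly shared by the 2 tissues. Of the 997 genes in the top 5% of tumors, 423 (42.4%) ranked at 90 or more in SubQ tissue, and 58 ranked under 50. Of the 997 genes in the top 5% of SubQ tissue, 483 (48.5%) ranked at 90 or more in tumors, 39 ranked under 50, and 256 had fallen in tumors while 62 had risen, all symbols counted.

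The 12 genes whose rank rose most, with provisional symbols left out, all came from near the floor of SubQ tissue. The provisional symbol AI506816 had a rise of the same order, with a mean rank of 99.5 in tumors, against 23.0 in SubQ tissue. Taf2 is a subunit of the transcription factor TFIID, and its level was 8.43 to 9.01 (median 8.78) in tumors, against 4.34, 4.66 and 4.63 in SubQ tissue. Timp1, a secreted inhibitor of matrix metalloproteinases, was at 7.86 to 9.27 (median 8.55) in tumors, against 4.56, 5.35 and 4.71 in SubQ tissue. Prdx2, a peroxidase that removes hydrogen peroxide, was at 9.79 to 11.56 (median 10.83) in tumors, against 4.93, 4.88 and 5.78 in SubQ tissue. In each of these genes the lowest tumor stood more than 2 log2 units above the highest SubQ array. Taf2 rose by 4.22 ± 0.13 SE on the log2 scale (limma adjusted p = 7.5e-13), with a mean rank of 94.2 in tumors, against 6.97 in SubQ tissue. Timp1 rose by 3.64 ± 0.27 SE (limma adjusted p = 5.2e-09), and Prdx2 by 5.57 ± 0.31 SE (limma adjusted p = 2.5e-10). The others were Appbp2 (up 4.21), the anti-apoptotic protein gene Hax1 (4.27), the translation factor gene Eif5a (3.78), the complex I subunit gene Ndufa9 (3.73), the iron-sulfur scaffold gene Nfu1 (3.55), the transcription factor gene Trps1 (4.08), the heterochromatin protein gene Cbx5 (4.11), the protein kinase A regulatory subunit gene Prkar1a (3.35) and the calcium-binding protein gene Sri (4.66). All 12 held, and their differences stayed positive with arrays centred on the genes that all cells use, at 0.64 (Prkar1a) to 2.86 (Prdx2). Each averaged under the 25th percentile of gene means in SubQ tissue (5.38), so the size of these increases is uncertain.

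The 12 genes whose rank fell most, chosen in the same way, were led by Retnla, a secreted protein of fat and of alternatively activated macrophages, at 3.10 to 4.52 (median 3.40) in tumors, against 7.17, 6.56 and 8.81 in SubQ tissue. Ppp1r3a, which binds the glycogen-regulating phosphatase of skeletal muscle, was at 3.66 to 5.87 (median 4.13) in tumors, against 7.74, 9.27 and 7.72 in SubQ tissue. Cd55, an inhibitor of complement on cell surfaces, was at 3.13 to 6.50 (median 3.71) in tumors, against 6.80, 7.62 and 8.36 in SubQ tissue. Tumors were low for Retnla. The highest tumors were tumor 3 of line 59 and tumor 2 of line 123 for Ppp1r3a (5.59 and 5.87), and tumor 1 of line 1 for Cd55 (6.50). Retnla fell by 3.98 ± 0.36 SE on the log2 scale (limma adjusted p = 4.2e-08), with a mean rank of 8.17 in tumors, against 92.2 in SubQ tissue. Ppp1r3a fell by 3.92 ± 0.42 SE (limma adjusted p = 2.8e-07) and Cd55 by 3.47 ± 0.53 SE (limma adjusted p = 1.5e-05). Epidermal genes were the largest group among the rest: Flg2, of the cornified layer, fell by 3.78, Spink5, a protease inhibitor of the skin barrier, by 3.66, Scel, of the cornified envelope, by 2.86, and Serpinb5, a serpin of epithelia, by 2.81. Sptlc3, a subunit of the enzyme that starts sphingolipid synthesis, fell by 2.97. Igkv8-30, an immunoglobulin light chain segment, fell by 2.63, Svs3b by 2.67, Pramel27 by 2.56 and Apol7d by 2.58. Their mean ranks in SubQ tissue were 91.3 (Svs3b) to 95.1 (Apol7d), although the host strain lacks mature B cells. Of the 1196 receptor genes, 7 also ranked near the top of SubQ tissue, against 0 in tumors, with Olfr328 at 92.2 in SubQ tissue. A high rank there thus need not mean expression, and whether SubQ tissue expresses Igkv8-30, Svs3b, Pramel27 or Apol7d was not tested. Of the 12 genes, 8 held, and Cd55, Flg2, Serpinb5 and Spink5 lost their calls when arrays were weighted by group.

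**Figure D3:**
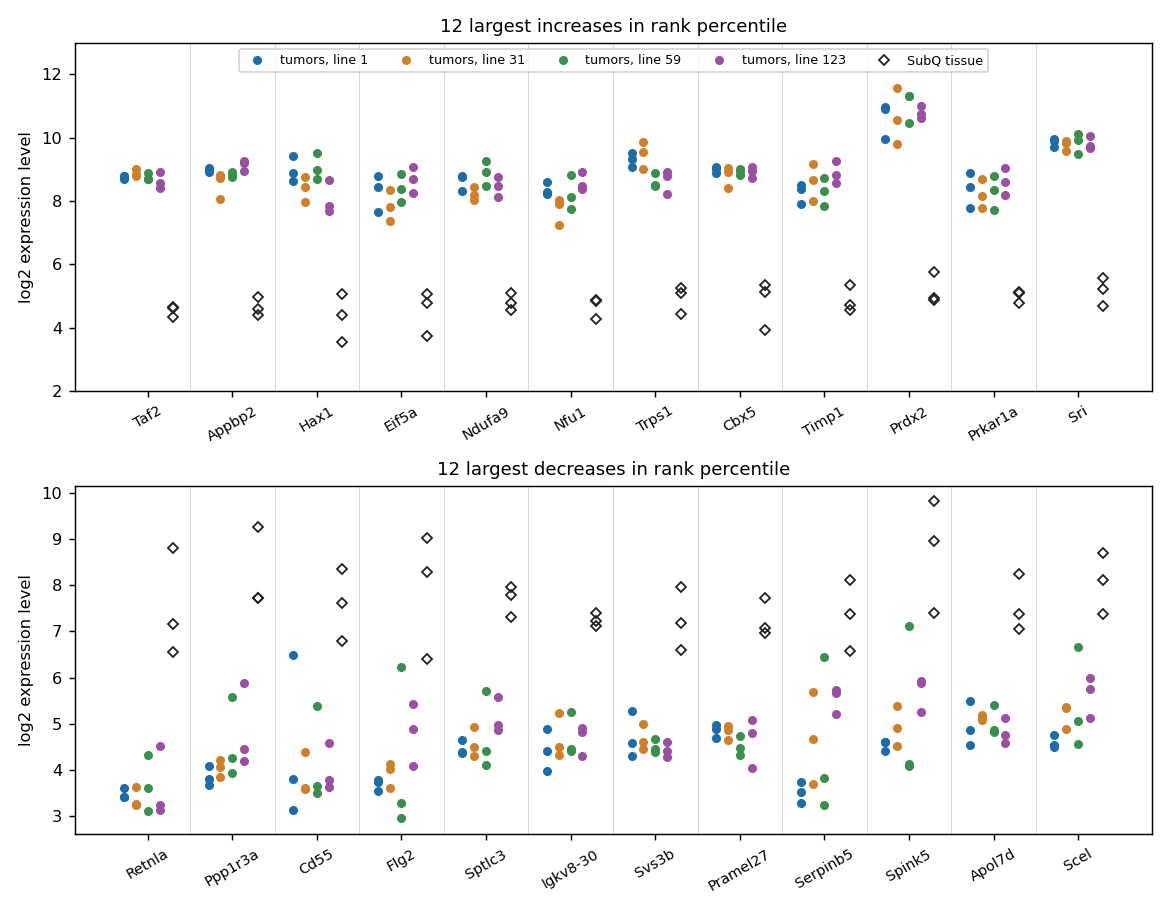
Log2 expression level (vertical axis) of the 12 genes with the largest increase in rank percentile (upper panel) and the 12 with the largest decrease (lower panel), 1 point per array, coloured by tumor line, with SubQ tissue as open diamonds to the right of the tumors. Tumor and SubQ points do not overlap in any of the 24 genes.

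Genes of fat, muscle and skin were among the groups in which members fell and none rose. Receptor genes, which belong to neither tissue, also fell, 254 of 1196 (21.2%), and 87 of the 1196 held. That is close to the share of all genes that fell and held (7.31%). Shares in a list that fell or held are read against these too, and holding alone does not set a decrease apart from the receptor genes. Of all 2852 genes that fell, 1324 averaged above the 95th percentile of the receptor genes in SubQ tissue (6.23), and for the rest the size of the decrease is uncertain. Markers of all 3 tissues ranked near the top of SubQ tissue: the fat marker Fabp4 ranked at 72.2 in tumors, against 99.8 in SubQ tissue, the muscle gene Ttn at 74.7 in tumors, against 99.7 in SubQ tissue, and the epidermal gene Spink5 at 34.1 in tumors, against 98.6 in SubQ tissue. Skeletal muscle genes came first in level: 13 of 26 ranked at 90 or more in SubQ tissue, against 0 in tumors. None of the 26 rose, 7 fell and 4 held, with a median rank of 54.2 in tumors, against 91.4 in SubQ tissue. Trdn, the triadin of the calcium release complex, was at 5.70 to 8.26 (median 6.97) in tumors, against 12.10, 12.43 and 12.39 in SubQ tissue. It was the gene with the widest gap in the list, and it fell by 5.34 ± 0.42 SE on the log2 scale (limma adjusted p = 9.9e-09). Ckm, the muscle creatine kinase, was at 5.84 to 6.67 (median 6.09) in tumors, against 6.82, 7.39 and 7.54 in SubQ tissue. Neb, the nebulin that sets thin filament length, was at 4.80 to 9.33 (median 7.25) in tumors, against 9.75, 10.71 and 10.03 in SubQ tissue, so that its tumors spread over more than 4 log2 units. Ckm fell by 1.12 ± 0.16 SE (limma adjusted p = 8.7e-06) and Neb by 2.97 ± 0.75 SE (limma adjusted p = 0.0018), although Neb lost its call when arrays were weighted by group. Besides Ppp1r3a, given above, the other members that fell were the muscle AMP deaminase gene Ampd1 (1.98), the calcium release channel gene Ryr1 (1.03) and the alpha-actinin gene Actn3 (1.15). Of the 7, Ryr1 was not above that percentile in SubQ tissue.

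The contractile genes that are usually the most abundant in muscle were lower on average in tumors, but the groups overlapped. Myh4, a fast myosin heavy chain, was at 4.97 to 9.14 (median 6.08) in tumors, against 7.62, 9.999 and 10.03 in SubQ tissue. Acta1, skeletal muscle actin, was at 5.74 to 8.70 (median 7.08) in tumors, against 8.27, 8.78 and 8.32 in SubQ tissue. Ttn, the giant protein titin, was at 4.88 to 9.62 (median 7.44) in tumors, against 8.996, 10.18 and 9.77 in SubQ tissue. Tumors of line 123 and line 59 held the upper end of the muscle list: the median rank of its 26 genes was 80.4 in tumor 2 of line 123 and 68.1 in tumor 3 of line 59, against 34.5 in tumor 3 of line 31 and 34.6 in tumor 2 of line 1. In SubQ replicates 1, 2 and 3 it was 85.1, 95.0 and 94.3. Without SubQ replicate 1, 14 muscle genes fell in place of 7. The list's median difference was -1.14 on the log2 scale, -3.85 with arrays centred on the genes that all cells use, and on the span scale its median was 0.42 in tumors, against 1.47 in SubQ tissue.

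Of 21 adipocyte genes 7 fell and none rose, and 12 fell without the tumors of line 1. The 4 that held were the lipid droplet genes Plin1 and Cidec, the triglyceride synthesis gene Dgat2 and Lep, the hormone of fat cells. Plin1, which coats the lipid droplet, was at 5.57 to 6.22 (median 5.87) in tumors, against 7.78, 7.34 and 7.73 in SubQ tissue. Cidec, which fuses lipid droplets, was at 4.90 to 5.57 (median 5.27) in tumors, against 6.66, 7.14 and 6.69 in SubQ tissue. Both showed narrow groups that lay far apart, and Plin1 fell by 1.74 ± 0.15 SE on the log2 scale (limma adjusted p = 3.9e-08). Lep was at 3.84 to 4.75 (median 4.19) in tumors, against 5.41, 6.05 and 6.67 in SubQ tissue, and fell by 1.83 ± 0.23 SE (limma adjusted p = 1.9e-06). Scd1, the stearoyl desaturase, was at 7.30 to 9.30 (median 8.28) in tumors, against 10.34, 10.41 and 10.83 in SubQ tissue, and fell by 2.32 ± 0.35 SE (limma adjusted p = 1.3e-05), without holding when arrays were weighted by group. Acvr1c, an activin receptor of fat cells, fell by 1.64 and Pck1, an enzyme of glyceroneogenesis, by 1.10. Lep and Acvr1c were not above the 95th percentile of the receptor genes in SubQ tissue, and the other 5 were.

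Other fat genes were lower on average, but single tumors lay above SubQ tissue. Adipoq, the adiponectin gene, was at 4.07 to 8.04 (median 4.47) in tumors, against 7.55, 6.56 and 6.92 in SubQ tissue. Fabp4, the fatty acid carrier of fat cells, was at 5.40 to 10.79 (median 6.78) in tumors, against 10.21, 9.53 and 10.31 in SubQ tissue. The adipocyte list had a median rank of 58.5 in tumor 1 of line 1 and of 34.0 to 46.1 in the other 11 tumors, against 75.1, 75.3 and 82.9 in SubQ tissue. Its median difference was -1.57, and -4.28 with arrays centred on the genes that all cells use. On the span scale the list median was 0.31 in tumors, against 1.06 in SubQ tissue, and 13 of 21 members were called lower.

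Keratinocyte and barrier genes were the largest falling list: 10 of 23 fell, 6 held and none rose, with a median rank of 50.4 in tumors, against 88.1 in SubQ tissue. Pof1b, a cytoskeletal protein of epithelial junctions, was at 2.77 to 5.37 (median 3.46) in tumors, against 6.29, 7.74 and 8.49 in SubQ tissue. Skint10, of an epidermal immunoglobulin family, was at 2.92 to 4.78 (median 3.52) in tumors, against 6.19, 7.004 and 6.99 in SubQ tissue. Lor, the loricrin of the cornified envelope, was at 3.73 to 4.98 (median 4.32) in tumors, against 5.70, 6.51 and 6.28 in SubQ tissue. In all of these the highest tumor lay under the lowest SubQ array by more than 0.7. Pof1b fell by 3.86 ± 0.48 SE on the log2 scale (limma adjusted p = 1.6e-06), Skint10 by 3.12 ± 0.30 SE (limma adjusted p = 9.4e-08) and Lor by 1.90 ± 0.21 SE (limma adjusted p = 3.4e-07). Calml3 (1.97), the involucrin gene Ivl (1.69) and the galectin gene Lgals7 (0.91) held as well. Krtdap (3.65) and Krt10 (2.67), of the upper epidermis, fell without holding, together with Flg2 and Spink5. Of the 10, Lor was not above the 95th percentile of the receptor genes in SubQ tissue.

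Keratins of the basal layer did not pass the test. Krt14 was at 5.13 to 8.38 (median 6.56) in tumors, against 7.15, 6.52 and 6.92 in SubQ tissue, a difference of -0.22 ± 0.63 SE (limma adjusted p = 0.75), which changed sign to 0.18 without the tumors of line 1. Krt5 was at 4.54 to 8.43 (median 6.37) in tumors, against 5.81, 7.62 and 8.17 in SubQ tissue. By array the median rank of the list was 72.7 in tumor 3 of line 59 and 28.3 to 64.8 in the other 11 tumors, against 82.2, 88.7 and 92.6 in SubQ tissue. Across the list the median difference was -1.61, and -4.32 with arrays centred on the genes that all cells use. Of the 14 genes of hair follicle and sebaceous gland, 3 fell and none rose: the desaturase gene Scd3 (1.77), the wax synthase gene Awat1 (1.33) and the hair regulator gene Hoxc13 (1.29). That count (21.4%) is near the share of the receptor genes that fell (21.2%). Hair keratins such as Krt27, at 4.43 to 6.57 (median 4.87) in tumors, against 7.08, 6.03 and 7.49 in SubQ tissue, overlapped between the groups. The list ranked at 33.4 in tumors, against 67.8 in SubQ tissue, and its median difference was -1.28, and -3.99 under that centring. Awat1 and Hoxc13 were not above the 95th percentile of the receptor genes in SubQ tissue. Without SubQ replicate 2, 6 genes of the list fell, and without the tumors of line 123, 7.

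**Figure D4:**
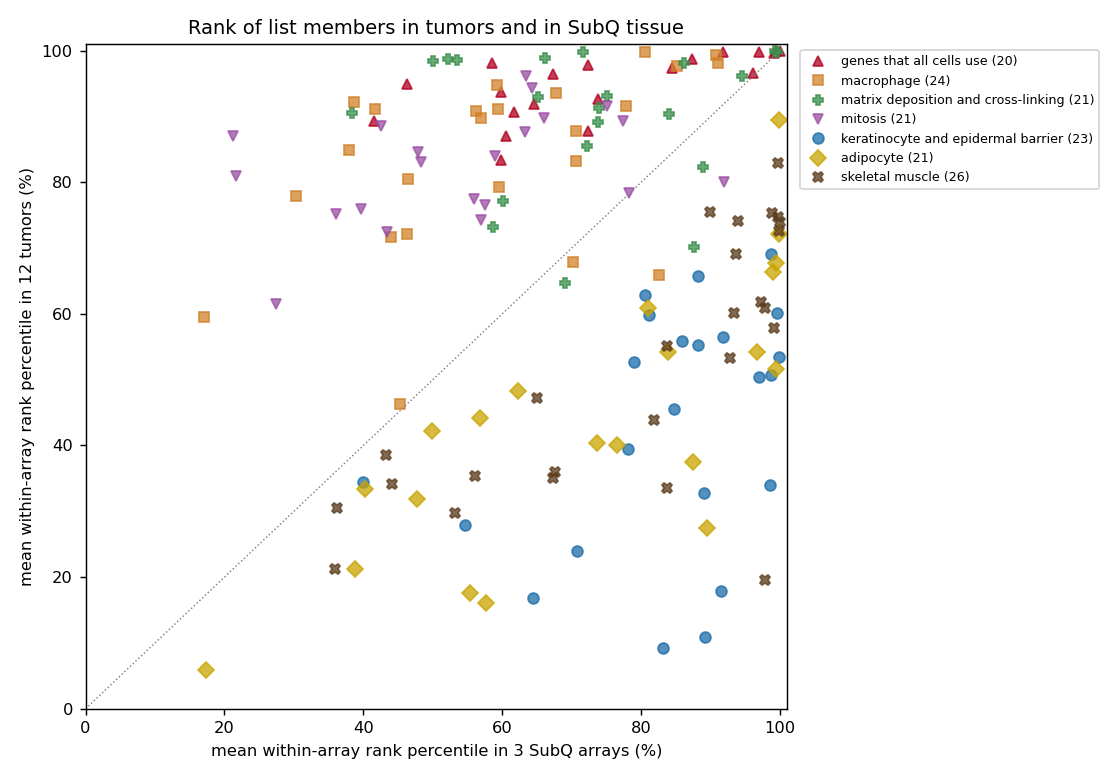
Mean within-array rank percentile of each member of 7 gene lists in the 12 tumors (vertical axis, in percent) against that in the 3 SubQ arrays (horizontal axis, in percent), with equal ranks on the dotted line. Most skeletal muscle, adipocyte and keratinocyte genes lie below the line, most mitosis, macrophage and matrix genes above it, and most of the genes that all cells use above it too.

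Promoter sequence is shown for genes of the muscle and cell cycle lists, whose medians moved in opposite directions on the log2 and rank scales. With arrays centred on the genes that all cells use, the medians of all these lists were lower in tumors. The lists are known for different promoter elements. Muscle genes are known for the E-box CAGCTG, which MyoD family factors bind. Mitotic genes are known for the CCAAT box and the CHR element TTTGAA, and replication genes for the E2F site TTTCGCGC. The sequences are RefSeq windows of GRCm38.p6 from 250 bases before to 50 bases after the gene start, searched on both strands, and capitals mark the matches of the motifs named for each list. Ckm lies at chr7:19410844-19411143 (plus strand), with 1 E-box and no match of the TATA box letters TATAAA.
Ckm: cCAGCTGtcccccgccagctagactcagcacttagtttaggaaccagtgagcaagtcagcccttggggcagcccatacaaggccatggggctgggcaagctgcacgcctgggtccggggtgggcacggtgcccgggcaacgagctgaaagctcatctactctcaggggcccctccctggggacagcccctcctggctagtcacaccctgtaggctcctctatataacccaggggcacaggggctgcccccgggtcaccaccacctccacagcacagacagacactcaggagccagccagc
Ppp1r3a lies at chr6:14755225-14755524 (minus strand), with 1 E-box and 2 matches of TATAAA, 1 of them on the other strand. Their distance from the gene start was not considered, so they need not be TATA boxes in use.
Ppp1r3a: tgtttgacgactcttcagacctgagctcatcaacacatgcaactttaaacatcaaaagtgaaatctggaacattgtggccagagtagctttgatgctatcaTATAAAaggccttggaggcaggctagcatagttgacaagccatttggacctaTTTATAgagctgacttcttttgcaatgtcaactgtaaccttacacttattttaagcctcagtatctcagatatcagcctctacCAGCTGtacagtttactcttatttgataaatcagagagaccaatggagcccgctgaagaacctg
Kif11 lies at chr19:37376132-37376431 (plus strand), with 1 CCAAT box and 1 CHR element, both read on the other strand.
Kif11: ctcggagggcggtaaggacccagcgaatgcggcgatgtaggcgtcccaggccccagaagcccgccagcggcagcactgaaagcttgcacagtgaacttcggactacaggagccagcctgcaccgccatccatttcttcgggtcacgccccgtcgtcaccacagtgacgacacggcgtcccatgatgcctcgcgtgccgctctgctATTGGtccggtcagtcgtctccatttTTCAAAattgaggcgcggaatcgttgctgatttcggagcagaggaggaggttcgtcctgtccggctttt
Kif23 lies at chr9:61946750-61947049 (minus strand), with 1 CCAAT box on the other strand and 1 CHR element.
Kif23: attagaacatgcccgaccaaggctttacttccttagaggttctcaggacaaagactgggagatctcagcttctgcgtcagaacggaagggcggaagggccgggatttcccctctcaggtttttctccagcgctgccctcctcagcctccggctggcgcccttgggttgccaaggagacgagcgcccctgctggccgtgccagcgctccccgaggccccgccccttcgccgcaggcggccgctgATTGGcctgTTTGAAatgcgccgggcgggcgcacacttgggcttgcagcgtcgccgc
Mcm6 lies at chr1:128359656-128359955 (minus strand), with 1 E2F site on the other strand.
Mcm6: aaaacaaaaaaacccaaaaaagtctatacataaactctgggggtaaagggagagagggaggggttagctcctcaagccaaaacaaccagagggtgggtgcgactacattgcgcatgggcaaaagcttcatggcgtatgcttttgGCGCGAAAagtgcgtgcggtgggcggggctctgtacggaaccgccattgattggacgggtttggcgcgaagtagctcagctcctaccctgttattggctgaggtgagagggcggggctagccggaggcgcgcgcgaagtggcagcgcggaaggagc

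Windows of 20 muscle genes were listed, and 13 of 24 windows (54.2%) held the E-box, against 16.3% of all 32851 windows. The TATA box letters TATAAA were at any place in 7 of the 24 (29.2%), against 13.6% of all. For mitosis 18 genes were listed, with a CCAAT box in 16 of 18 windows (88.9%), against 37.4% of all, and a CHR element in 13 of 18 (72.2%), against 17.9%. For DNA replication 20 genes were listed, with the E2F site in 4 of 23 windows (17.4%), against 0.323% of all. Among members that rose or fell and had a window, the share was smaller for some motifs. Of 4 mitosis genes that rose, 3 windows held a CCAAT box and 2 a CHR element, with none of the first in Birc5 and none of the second in Birc5 and Bub1. Of 8 replication genes that rose, the E2F site was in the window of Mcm6 and in none of the other 7. Of 3 muscle genes that fell, Ckm and Ppp1r3a had the E-box and Ryr1 did not.

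As lists, genes of cell division ranked higher in tumors, but a smaller share of them rose than of the genes that all cells use (13 of 20). Of 21 mitosis genes, 6 rose, 3 held and none fell, and of 24 replication genes 9 rose, 4 kept their calls with group weights, 3 held and none fell. The lists ranked at a median of 83.0 in tumors, against 56.9 in SubQ tissue for mitosis and of 76.1 in tumors, against 48.8 in SubQ tissue for replication. Kif11, the kinesin that pushes spindle poles apart, was at 7.03 to 8.82 (median 8.17) in tumors, against 5.73, 5.51 and 5.86 in SubQ tissue. Bub1, a kinase of the spindle checkpoint, was at 6.56 to 8.83 (median 8.08) in tumors, against 5.45, 4.85 and 5.22 in SubQ tissue. Tpx2, which starts microtubules at the spindle, was at 6.75 to 7.83 (median 7.31) in tumors, against 5.16, 5.32 and 5.12 in SubQ tissue. The lowest tumor lay more than 1 log2 unit above the highest SubQ array in each. Kif11 rose by 2.35 ± 0.27 SE on the log2 scale (limma adjusted p = 7.5e-07), Bub1 by 2.78 ± 0.35 SE (limma adjusted p = 1.7e-06) and Tpx2 by 2.15 ± 0.19 SE (limma adjusted p = 3e-08), although with arrays centred on the genes that all cells use Kif11 and Tpx2 were 0.36 and 0.56 lower in tumors. Kif23 (1.86), the cyclin gene Ccna2 (2.79) and the survivin gene Birc5 (2.01) rose without holding.

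Mki67, the marker most used for dividing cells, was at 7.55 to 8.80 (median 7.99) in tumors, against 6.02, 6.46 and 7.38 in SubQ tissue. Its groups overlapped in rank, and its difference of 1.47 ± 0.25 SE turned round on the span scale and under the centring on the genes that all cells use (-1.24). Among replication genes Mcm6, of the replicative helicase, was at 7.63 to 8.94 (median 8.49) in tumors, against 5.67, 5.04 and 6.45 in SubQ tissue, and rose by 2.74 ± 0.28 SE on the log2 scale (limma adjusted p = 1.6e-07). Rrm1, the large subunit of ribonucleotide reductase, was at 8.07 to 8.82 (median 8.61) in tumors, against 5.09, 5.85 and 6.23 in SubQ tissue, and rose by 2.78 ± 0.20 SE (limma adjusted p = 3.7e-09). Dut, which keeps uracil out of DNA, was at 6.68 to 7.32 (median 6.98) in tumors, against 5.58, 5.15 and 5.45 in SubQ tissue. Dut rose by 1.59 ± 0.15 SE (limma adjusted p = 5.9e-08), and was 1.12 lower under that centring. Tumors were close together for Rrm1 and Dut, and the SubQ arrays lay below them. The others that rose were Pola1 (2.20), Prim1 (2.44), Mcm4 (1.94), Rrm2 (1.69), Rfc4 (1.51) and Cdc45 (1.31). Cdc20, Mcm5, Cdt1 and Ccne1 had differences of 0.10 ± 0.24 SE, 0.27 ± 0.21 SE, 0.001 ± 0.15 SE and 0.23 ± 0.19 SE, none past the test on the log2 scale. The lists' median differences were 1.51 and 1.02, and -1.20 and -1.69 with arrays centred on the genes that all cells use. Without SubQ replicate 1, 2 or 3 the mitosis genes that rose numbered 9, 10 or 11, and without the tumors of line 31 they numbered 11.

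Matrix genes formed a list in which 10 of 21 rose, 5 held and none fell, with a median rank of 92.9 in tumors, against 72.1 in SubQ tissue. A larger share rose among the genes that all cells use (13 of 20). Fn1, the fibronectin gene, was at 10.25 to 12.39 (median 11.70) in tumors, against 6.22, 6.05 and 6.75 in SubQ tissue. Col12a1, a collagen that lies on the surface of collagen fibrils, was at 9.32 to 10.63 (median 10.28) in tumors, against 5.70, 5.998 and 5.96 in SubQ tissue. Vcan, the large proteoglycan versican, was at 9.11 to 10.97 (median 10.18) in tumors, against 5.53, 5.83 and 6.19 in SubQ tissue. SubQ arrays lay close together in all of these, and the lowest tumor was more than 2 log2 units above the highest of them. Col12a1 rose by 4.32 ± 0.24 SE on the log2 scale (limma adjusted p = 3.5e-10) and Vcan by 4.20 ± 0.30 SE (limma adjusted p = 3.3e-09). Tnc, the tenascin of wounds and tumors, was at 9.34 to 10.78 (median 10.13) in tumors, against 6.14, 5.70 and 5.89 in SubQ tissue, and Bgn, the small proteoglycan biglycan, at 9.64 to 11.12 (median 10.37) in tumors, against 5.97, 6.22 and 6.35 in SubQ tissue. Tnc rose by 4.17 ± 0.21 SE (limma adjusted p = 1e-10) and Bgn by 4.12 ± 0.25 SE (limma adjusted p = 7e-10). Fn1, Col12a1, Vcan, Tnc and Bgn also rose under the centring on the genes that all cells use.

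The thrombospondin genes Thbs1 (2.11) and Thbs2 (2.80), Tgfbi (3.14), Col6a3 (2.33) and Sparc (3.79) completed the 10. The fibril collagens were different: Col1a1 was at 7.41 to 9.11 (median 8.24) in tumors, against 6.48, 6.48 and 7.25 in SubQ tissue, with ranks that overlapped, and its difference of 1.51 ± 0.29 SE turned round on the span scale and to -1.20 under that centring. Col3a1 was at 7.60 to 8.67 (median 8.07) in tumors, against 6.09, 6.27 and 6.86 in SubQ tissue, and Col5a1 at 6.29 to 6.96 (median 6.64) in tumors, against 6.97, 6.70 and 6.72 in SubQ tissue. Postn, the periostin of stroma, was at 11.03 to 12.25 (median 11.66) in tumors, against 8.58, 8.85 and 10.30 in SubQ tissue, with mean ranks of 99.8 in tumors, against 99.5 in SubQ tissue. The list's median difference was 2.33, and -0.38 with arrays centred on the genes that all cells use.

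Enzymes that fold and finish collagen rose with the matrix genes: of 22 genes of ER protein folding and collagen maturation, 11 rose, 4 held and none fell. Plod2, the lysyl hydroxylase of collagen telopeptides, was at 8.83 to 9.87 (median 9.41) in tumors, against 5.55, 5.11 and 5.25 in SubQ tissue, and rose by 4.10 ± 0.17 SE on the log2 scale (limma adjusted p = 2.7e-11). P4hb, which is a protein disulfide isomerase and a subunit of prolyl hydroxylase, was at 9.53 to 11.26 (median 10.35) in tumors, against 5.80, 4.90 and 5.22 in SubQ tissue, and rose by 5.06 ± 0.28 SE (limma adjusted p = 2.5e-10). In both genes SubQ arrays ranked in the lower part of the array and tumors near the top, with means of 97.0 in tumors, against 25.4 in SubQ tissue for Plod2 and of 98.9 in tumors, against 27.4 in SubQ tissue for P4hb. Creld2 (2.67), a resident protein of the ER, and Crtap (1.85), of the prolyl 3-hydroxylation complex, held too. Ppic (4.75), Hspa5 (2.59), Canx (2.51), Pdia6 (2.47), Pdia4 (2.34), Dnajb11 (2.17) and Ppib (2.11) rose without holding. Serpinh1, the collagen chaperone HSP47, was at 6.70 to 7.50 (median 7.05) in tumors, against 6.67, 5.998 and 5.43 in SubQ tissue. The median member differed by 2.23, and -0.48 with arrays centred on the genes that all cells use. Relative to all genes it was -0.01 on the span scale, and 18 members rose without SubQ replicate 1.

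Of 21 matrix proteases and their inhibitors 9 rose, 2 held (Timp1 and Adam12) and none fell. Adam12, a membrane protease of growing tissue, was at 6.996 to 7.56 (median 7.19) in tumors, against 5.54, 5.77 and 5.34 in SubQ tissue, and rose by 1.66 ± 0.13 SE on the log2 scale (limma adjusted p = 1e-08), although it was 1.05 lower under the centring on the genes that all cells use. Ctsk, the collagen-cutting cathepsin, was at 8.20 to 10.89 (median 9.25) in tumors, against 6.29, 5.20 and 5.87 in SubQ tissue, and rose by 3.64 ± 0.49 SE (limma adjusted p = 3.6e-06). Tumors ran over more than 2 log2 units for Ctsk, with all of them above SubQ tissue. Ctsl (3.54), Ctsb (3.39), Timp2 (3.06), Mmp13 (2.63), Plat (2.29) and Mmp12 (1.95) also rose. Mmp3, which cuts many matrix proteins, was at 7.39 to 11.50 (median 8.40) in tumors, against 6.90, 6.81 and 6.83 in SubQ tissue, and Timp3, an inhibitor bound to the matrix, at 6.50 to 11.34 (median 8.81) in tumors, against 6.16, 7.13 and 6.64 in SubQ tissue. Tumors spread over more than 4 log2 units for both, and neither passed the test on the rank scale. The list's median difference was 2.01, and -0.70 under that centring.

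Genes of resident fibroblasts did not move together: 1 of 17 rose, 2 fell, and the list ranked at 86.0 in tumors, against 82.9 in SubQ tissue. Clec3b, the tetranectin of quiescent fibroblasts, was at 4.25 to 5.16 (median 4.80) in tumors, against 6.25, 6.77 and 6.48 in SubQ tissue, and fell by 1.73 ± 0.17 SE on the log2 scale (limma adjusted p = 1e-07). Col15a1, a basement membrane collagen, was at 5.99 to 6.56 (median 6.31) in tumors, against 7.45, 6.68 and 6.83 in SubQ tissue, and fell by 0.72 ± 0.16 SE (limma adjusted p = 0.00046). Both held. Fbln2, a fibulin of elastic and developing matrix, rose by 2.46 ± 0.50 SE (limma adjusted p = 0.00028), was 0.26 lower under the centring on the genes that all cells use, and differed between tumor lines. Dcn, the decorin of fibrous tissue, was near the top of both tissues at 9.27 to 12.13 (median 11.38) in tumors, against 10.12, 10.56 and 11.13 in SubQ tissue. The list's median difference relative to all genes was positive on the log2 scale (0.66), and negative after scaling by the SD (-0.18), after quantile normalization (-0.44) and on the span scale (-0.36).

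Macrophage genes rose most often among the lists of immune cells: 13 of 24 rose, 2 held, and none fell, with a median rank of 88.7 in tumors, against 59.3 in SubQ tissue. That share was still smaller than among the genes that all cells use (13 of 20). Lyz2, a lysozyme of phagocytes, was at 11.12 to 12.53 (median 11.77) in tumors, against 6.42, 6.26 and 7.31 in SubQ tissue. Cd68, of macrophage lysosomes, was at 8.49 to 9.65 (median 8.77) in tumors, against 5.32, 6.30 and 6.54 in SubQ tissue. Adgre1, the F4/80 antigen, was at 7.22 to 9.21 (median 8.39) in tumors, against 5.40, 6.40 and 6.13 in SubQ tissue. SubQ arrays lay well below every tumor for Lyz2 and Cd68, and nearer to the lowest tumor for Adgre1. Lyz2 rose by 5.26 ± 0.29 SE on the log2 scale (limma adjusted p = 2.5e-10), and stayed 2.55 higher with arrays centred on the genes that all cells use. Cd68 rose by 2.83 ± 0.26 SE (limma adjusted p = 4.9e-08). Itgb2, the integrin chain shared by leukocytes, was at 5.56 to 6.72 (median 6.06) in tumors, against 5.27, 5.13 and 4.68 in SubQ tissue, and held with 1.09 ± 0.20 SE (limma adjusted p = 9.3e-05), but was 1.63 lower under that centring. Msr1, a scavenger receptor, rose by 3.02, Ms4a7 by 2.73, Csf1r, the receptor of the macrophage growth factor, by 2.18, and Mpeg1 by 2.13. Ctss (3.75), Tyrobp (2.87), Fcer1g (2.31), Itgam (1.58) and Fcgr1 (1.30) were the remaining members that rose.

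The macrophage list ranked at a median of 80.7 to 93.8 in single tumors, against 62.2, 62.6 and 62.8 in SubQ replicates 1, 2 and 3. Trem2, C1qa and Cd163 had differences of -0.19 ± 0.15 SE, 0.23 ± 0.37 SE and -0.17 ± 0.31 SE, none past the test on the log2 scale. Mrc1, the mannose receptor, was at 8.96 to 10.42 (median 9.69) in tumors, against 6.95, 6.17 and 7.70 in SubQ tissue, with ranks that overlapped. Over the list the median difference was 2.02, -0.69 with arrays centred on the genes that all cells use, and on the span scale its median was 0.79 in tumors, against 0.70 in SubQ tissue. Retnla, which is also made by macrophages, fell, as given above.

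Lymphocyte genes ranked low in both tissues, at a median of 29.6 in tumors, against 36.2 in SubQ tissue, and 5 of 18 in tumors and 4 of 18 in SubQ tissue averaged above the 95th percentile of receptor genes. Of the 18, 3 fell and none rose. Cd8a, the co-receptor of cytotoxic T cells, was at 5.14 to 5.58 (median 5.29) in tumors, against 6.98, 6.72 and 6.77 in SubQ tissue, and fell by 1.51 ± 0.12 SE on the log2 scale (limma adjusted p = 1.6e-08). Cd3e and Cd3d, of the T cell receptor complex, fell by 0.68 and 1.43, with Cd3d not above the 95th percentile of the receptor genes in SubQ tissue. Cd4, Cd2 and Gzmb were at differences of -0.48 ± 0.19 SE, -0.68 ± 0.17 SE and -0.02 ± 0.33 SE, with groups that overlapped. The count is near the background share, and the list's median difference was -0.76, and -3.47 with arrays centred on the genes that all cells use. The host strain lacks mature T and B cells, and what gives these signals was not tested. Without SubQ replicate 1 or 3 the count that fell was 6 or 7, and without the tumors of line 31 it was 5.

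Neutrophil and mast cell genes gave 1 member of 17 that fell and none that rose. Ngp, a granule protein gene of neutrophils, was at 3.45 to 4.05 (median 3.75) in tumors, against 5.52, 5.03 and 5.37 in SubQ tissue, and fell by 1.59 ± 0.15 SE on the log2 scale (limma adjusted p = 1.1e-07). It was not above the 95th percentile of the receptor genes in either tissue, so the size of this decrease is uncertain. S100a9, the calprotectin gene of neutrophils, was at 4.65 to 9.19 (median 5.37) in tumors, against 6.74, 5.54 and 5.70 in SubQ tissue, with a difference of 0.31 ± 0.97 SE (limma adjusted p = 0.78), and was high in the 3 tumors of line 1 and in 1 of line 31. Genes of antigen presentation and interferon response gave 1 of 18 that rose and none that fell, and 4 that rose without the tumors of line 1. Ifitm3, an antiviral membrane protein, was at 11.07 to 12.002 (median 11.40) in tumors, against 7.31, 8.83 and 7.95 in SubQ tissue, and rose by 3.43 ± 0.24 SE (limma adjusted p = 3.3e-09), but was lower in tumors on the span scale. B2m, the light chain of class I molecules, was at 11.71 to 12.83 (median 12.16) in tumors, against 10.88, 11.04 and 11.86 in SubQ tissue, and its difference of 0.92 ± 0.21 SE turned round on 4 other scales. The median differences of the 2 lists were -0.52 and 0.74, and -3.23 and -1.97 with arrays centred on the genes that all cells use.

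Vessel genes moved little as a list: 2 of 22 genes of blood and lymphatic endothelium rose, none fell and none held, which is near the background share. Without SubQ replicate 2, or without the tumors of line 1, 3 members fell. Emcn, the endomucin of capillaries and veins, was at 6.95 to 9.32 (median 7.84) in tumors, against 6.30, 5.86 and 5.10 in SubQ tissue, and rose by 2.18 ± 0.41 SE on the log2 scale (limma adjusted p = 0.00012). Pecam1, the CD31 junction protein, was at 6.69 to 7.90 (median 7.39) in tumors, against 5.86, 6.03 and 5.08 in SubQ tissue, and rose by 1.67 ± 0.27 SE (limma adjusted p = 2.5e-05). Both lost their calls with group weights, and were 0.53 and 1.05 lower under the centring on the genes that all cells use. Kdr, the main VEGF receptor, was at 5.71 to 7.44 (median 6.17) in tumors, against 5.64, 5.84 and 5.49 in SubQ tissue, and Lyve1, of lymphatics and some macrophages, at 5.80 to 7.30 (median 6.41) in tumors, against 7.20, 7.35 and 7.46 in SubQ tissue. The list ranked at 58.2 in tumors, against 50.9 in SubQ tissue, and its median difference was 0.04, and -2.67 under that centring.

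Of 16 genes of mural and smooth muscle cells 4 rose and 1 fell, at a median rank of 64.6 in tumors, against 65.7 in SubQ tissue. Acta2, smooth muscle actin, which myofibroblasts also make, was at 8.58 to 12.31 (median 10.69) in tumors, against 7.003, 5.29 and 6.14 in SubQ tissue, and rose by 4.37 ± 0.57 SE on the log2 scale (limma adjusted p = 2.8e-06). Myl9 (2.40), Pdgfrb, the receptor of pericytes and fibroblasts (1.99), and Mcam (1.43) rose as well, and no increase in the list held. Lmod1, a leiomodin of smooth muscle, was at 4.85 to 5.41 (median 5.28) in tumors, against 6.17, 6.58 and 6.40 in SubQ tissue, and fell by 1.15 ± 0.12 SE (limma adjusted p = 3e-07). Myh11, the myosin of differentiated smooth muscle, was at 5.70 to 6.84 (median 6.02) in tumors, against 6.65, 7.36 and 6.65 in SubQ tissue. The list's median difference relative to all genes was positive on the log2 scale (0.48), and negative after scaling by the SD (-0.15), after quantile normalization (-0.37), on the span scale (-0.23) and among genes with a higher group mean above the median (-0.17). In the list of Schwann cells and myelin 2 of 11 fell and none rose, and 4 fell without SubQ replicate 2. S100b, a calcium-binding protein of glia and fat, was at 4.72 to 5.55 (median 5.03) in tumors, against 5.95, 6.25 and 6.59 in SubQ tissue, and Mbp, myelin basic protein, at 5.09 to 5.97 (median 5.52) in tumors, against 6.48, 6.37 and 6.09 in SubQ tissue. S100b and Mbp fell by 1.23 ± 0.18 SE (limma adjusted p = 9.3e-06) and 0.77 ± 0.15 SE (limma adjusted p = 0.00013), and neither held. The count with all arrays is near the background share, and the list's median difference was -0.77, and -3.48 with arrays centred on the genes that all cells use.

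The tumors came from neural stem cell lines, and markers of that origin were mostly near the receptor genes in them. Of 22 genes of neural stem cells and glia none rose and 4 fell, at a median rank of 34.0 in tumors, against 51.3 in SubQ tissue, and 8 of 22 in tumors averaged above the 95th percentile of receptor genes, against 4 of 22 in SubQ tissue. Olig2, a factor of glial progenitors, was at 4.23 to 4.95 (median 4.66) in tumors, against 6.35, 6.04 and 5.19 in SubQ tissue. Gfap, the filament of astrocytes, was at 4.57 to 6.25 (median 4.74) in tumors, against 6.77, 5.43 and 5.57 in SubQ tissue. Fabp7 and Prom1 were at 3.98 to 5.13 (median 4.40) and 3.74 to 4.84 (median 4.08) in tumors, against 5.20, 4.61 and 5.47, and 4.82, 5.28 and 4.13, in SubQ tissue. Tumors lay low on the array for all of these, with mean ranks of 22.6 in tumors, against 52.6 in SubQ tissue for Olig2 and of 19.9 in tumors, against 20.1 in SubQ tissue for Fabp7, and only Olig2 separated the groups on the log2 scale. Cspg5 and Hes5, which held, fell by 1.34 ± 0.14 SE (limma adjusted p = 1.7e-07) and 0.58 ± 0.11 SE (limma adjusted p = 0.00016) on the log2 scale. Aqp4 and Gpm6a fell by 1.24 and 1.35, from SubQ means not above the 95th percentile of the receptor genes. These counts are near the background share.

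Nes and Sox2, markers of neural stem cells, were higher on average in the tumors of line 59 than in those of the other lines. Nes, the nestin filament, was at 5.63 to 8.02 (median 6.38) in tumors, against 4.61, 5.41 and 5.70 in SubQ tissue, a difference of 1.35 ± 0.49 SE (limma adjusted p = 0.019), and of -1.36 under the centring, with ranks that did not overlap and levels that did. Sox2 was at 3.99 to 7.66 (median 5.54) in tumors, against 6.06, 5.68 and 5.91 in SubQ tissue, a difference of -0.20 ± 0.63 SE (limma adjusted p = 0.78), which changed sign to 0.20 and 0.02 without the tumors of line 1 and of line 31. Egfr, which neural stem cells and many epithelia carry, was at 7.21 to 8.25 (median 7.81) in tumors, against 6.25, 7.22 and 7.09 in SubQ tissue. Of 16 neuron genes 2 fell and none rose: the synaptic vesicle genes Syt1, at 4.37 to 5.12 (median 4.70) in tumors, against 6.60, 5.93 and 5.70 in SubQ tissue, and Syp, at 5.40 to 5.95 (median 5.51) in tumors, against 6.19, 6.01 and 6.53 in SubQ tissue. They fell by 1.38 ± 0.18 SE (limma adjusted p = 2.5e-06) and 0.72 ± 0.13 SE (limma adjusted p = 9.2e-05), with Syt1 not above the 95th percentile of the receptor genes in SubQ tissue. The median differences of the 2 lists were -0.60 and -0.53, and -3.31 and -3.25 with arrays centred on the genes that all cells use, and relative to all genes the neuron list turned to 0.03 on the span scale.

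Genes that mark the mesenchymal form of glioma ranked high in the tumors: 11 of 22 rose, 1 held (Timp1) and none fell, at a median rank of 92.8 in tumors, against 72.5 in SubQ tissue. A larger share rose among the genes that all cells use (13 of 20). Cd44, the hyaluronan receptor, was at 7.92 to 9.44 (median 8.51) in tumors, against 5.93, 6.20 and 6.09 in SubQ tissue. Myof, a membrane repair protein, was at 8.17 to 9.71 (median 9.25) in tumors, against 5.50, 6.42 and 5.97 in SubQ tissue. Runx1, a transcription factor, was at 7.48 to 8.99 (median 8.14) in tumors, against 5.50, 5.9998 and 6.28 in SubQ tissue. In these genes the lowest tumor lay above every SubQ array by more than 1. Cd44 rose by 2.55 ± 0.23 SE on the log2 scale (limma adjusted p = 4.8e-08), Myof by 3.15 ± 0.28 SE (limma adjusted p = 4.3e-08) and Runx1 by 2.23 ± 0.25 SE (limma adjusted p = 4.9e-07), with values of -0.16 for Cd44 and -0.48 for Runx1 under the centring on the genes that all cells use. Vim, the filament of mesenchymal cells, was at 11.44 to 12.53 (median 11.93) in tumors, against 8.57, 8.70 and 9.39 in SubQ tissue, near the top of both tissues, and its increase of 3.08 ± 0.21 SE turned round on the span scale. Lgals1 (4.83), S100a6 (4.39), Anxa2 (3.30), Anxa1 (3.28), Tgfbi (3.14) and Met (5.12) were the others that rose besides Timp1. Cebpb and Stat3, known as regulators of this form, had differences of 0.59 ± 0.21 SE and 0.98 ± 0.15 SE with groups that overlapped in level or rank. The list's median difference was 2.01, and -0.70 under that centring.

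Met was the receptor gene with the largest increase among growth factors and receptor kinases, of which 8 of 25 rose and 1 fell. Met, the receptor of hepatocyte growth factor, was at 7.41 to 12.64 (median 10.18) in tumors, against 4.87, 5.90 and 4.80 in SubQ tissue. Hgf, its ligand, was at 6.80 to 10.10 (median 7.63) in tumors, against 5.24, 5.25 and 5.79 in SubQ tissue. The tumors spread over more than 5 log2 units for Met and more than 3 for Hgf, and all lay above SubQ tissue. Met rose by 5.12 ± 0.89 SE on the log2 scale (limma adjusted p = 5.3e-05) and Hgf by 2.48 ± 0.50 SE (limma adjusted p = 0.00025), although Hgf was 0.23 lower under the centring on the genes that all cells use, and both lost their calls with group weights. By tumor Met was at 9.81, 10.53 and 10.19 in line 1, at 8.33, 7.41 and 11.97 in line 31, at 9.28, 12.02 and 8.88 in line 59, and at 12.64, 10.18 and 12.47 in line 123. The spread lay within lines as well as between them, and the moderated F test among lines gave limma adjusted p = 0.46.

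Pdgfc, a ligand of the PDGF receptor alpha, was the member that held. It was at 8.58 to 9.79 (median 8.94) in tumors, against 5.23, 6.05 and 6.38 in SubQ tissue, and rose by 3.20 ± 0.27 SE on the log2 scale (limma adjusted p = 2.4e-08). Axl, a receptor kinase of mesenchymal cells, was at 7.17 to 9.21 (median 7.97) in tumors, against 5.92, 4.92 and 5.73 in SubQ tissue, and Fgfr1, a receptor of fibroblast growth factors, at 6.94 to 8.9997 (median 7.95) in tumors, against 5.78, 5.92 and 6.07 in SubQ tissue. They rose by 2.52 ± 0.36 SE (limma adjusted p = 6.8e-06) and 1.99 ± 0.32 SE (limma adjusted p = 2.7e-05). Fgf7 (2.81), Hbegf (2.01) and Pdgfrb (1.99) rose too. Igf2, the fetal growth factor, was at 4.89 to 5.70 (median 5.31) in tumors, against 5.96, 6.31 and 6.55 in SubQ tissue, and fell by 0.95 ± 0.17 SE (limma adjusted p = 7.9e-05). Vegfa, at 7.32 to 8.91 (median 8.08) in tumors, against 7.70, 6.76 and 6.97 in SubQ tissue, and Pdgfa, at 6.55 to 7.24 (median 6.96) in tumors, against 6.90, 6.87 and 7.06 in SubQ tissue, overlapped between the groups. The 25 genes had a median difference of 0.96, and -1.75 under the centring on the genes that all cells use, and relative to all genes it was -0.002 on the span scale.

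Genes of energy metabolism moved both ways. Of 18 genes of glycolysis and hypoxia 6 rose, 2 held and none fell, and of 18 genes of mitochondrial fatty acid oxidation and its partners 6 rose and 3 fell. P4ha1, a prolyl hydroxylase that hypoxia induces, was at 7.58 to 8.87 (median 8.52) in tumors, against 5.87, 5.62 and 5.44 in SubQ tissue, and rose by 2.84 ± 0.21 SE on the log2 scale (limma adjusted p = 5.8e-09). Pfkp, a phosphofructokinase, was at 7.69 to 9.36 (median 8.07) in tumors, against 5.60, 5.26 and 6.05 in SubQ tissue, and rose by 2.56 ± 0.28 SE (limma adjusted p = 3.7e-07), with -0.15 under the centring on the genes that all cells use. Pgk1 (4.47), Pgam1 (2.91), P4ha2 (1.97) and Ndrg1 (1.69) rose without holding. Car9 and Adm, which hypoxia induces strongly in many cells, had differences of 0.12 ± 0.37 SE and -0.32 ± 0.26 SE, not past the test on the log2 scale. Cox8b and Cox6a2, the forms of cytochrome c oxidase subunits made in heart and skeletal muscle, were at 4.53 to 5.79 (median 5.22) in tumors, against 7.34, 7.46 and 6.17 in SubQ tissue, and at 5.90 to 6.71 (median 6.34) in tumors, against 7.33, 6.86 and 7.59 in SubQ tissue. Fabp3, the fatty acid carrier of muscle, was at 7.37 to 8.26 (median 7.80) in tumors, against 8.98, 8.90 and 9.51 in SubQ tissue. These 3 fell, by 1.77 ± 0.27 SE (limma adjusted p = 1.6e-05), 0.93 ± 0.18 SE (limma adjusted p = 0.00016) and 1.31 ± 0.17 SE (limma adjusted p = 2.7e-06), and all held. Acadm, the medium-chain dehydrogenase of fatty acid oxidation, was at 6.88 to 7.79 (median 7.13) in tumors, against 5.53, 5.57 and 5.06 in SubQ tissue, and held with a rise of 1.81 ± 0.17 SE (limma adjusted p = 8.7e-08), though it was 0.90 lower under that centring. Cs (2.77), Hadha (2.06), Acaa2 (2.00), Acadvl (1.63) and Slc25a20 (1.28), which most cells express, rose without holding. The median differences of the 2 lists were 1.64 and 0.77, and -1.07 and -1.94 under the centring, and relative to all genes the second was -0.03 on the span scale.

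Genes that most cells use also rose. Of the 20 genes that all cells use 13 rose, 1 held and none fell, at a median rank of 96.5 in tumors, against 72.4 in SubQ tissue. The span scale and the centring are both set by the median of these same genes. The count that held and the list's median under the centring were therefore partly fixed in advance. Actb, the cytoplasmic actin, was at 11.92 to 12.63 (median 12.28) in tumors, against 8.35, 8.53 and 9.82 in SubQ tissue, and its increase of 3.36 ± 0.23 SE turned round on the span scale. Psmb2, a proteasome subunit, was at 8.53 to 9.30 (median 8.88) in tumors, against 5.84, 5.66 and 5.81 in SubQ tissue, and was the member that held (3.12 ± 0.17 SE, limma adjusted p = 2.9e-10). Tpt1 was near the top of every array, at 12.16 to 12.51 (median 12.40) in tumors, against 11.47, 11.77 and 12.08 in SubQ tissue. Of 19 ribosomal protein genes 11 rose and 2 held (Rpl30 and Rplp0), and of 20 splicing and hnRNP genes 8 rose and 2 held (Snrpa1 and Srsf6), with none that fell in either list. Rpl30 was at 7.82 to 8.37 (median 8.20) in tumors, against 5.41, 5.46 and 5.04 in SubQ tissue, and Rps6 at 12.35 to 13.05 (median 12.51) in tumors, against 9.47, 11.48 and 12.08 in SubQ tissue. Within the ribosomal list some members ranked alike in both tissues and others did not, as these 2 show. The median differences were 2.47 for the genes that all cells use, 2.85 for ribosomal proteins and 2.16 for splicing genes, and -0.24, 0.14 and -0.55 under the centring on the first list. Relative to all genes the last 2 lists turned to -0.73 and -0.22 on the span scale. Of the 1196 receptor genes 254 fell and none rose, with a median difference of -1.25, so the median receptor gene was lower in tumors in log2 terms.

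The 85 genes that rose even with arrays centred on the genes that all cells use were led in size by AI506816, Prdx2, Lyz2, Fn1, P4hb and Lgals1, and included the ribosomal gene Rplp0 and the glycolysis gene Pgk1. Of the 20 genes that set this centring, 3 were among the 85, including Actb (0.65) and Ppia (0.86). Rpl6, Psma3 and Eif3h, of ribosome, proteasome and translation, were among them too, so the set is not particular to tumor genes. Ext1, which builds heparan sulfate chains, was at 10.08 to 11.03 (median 10.66) in tumors, against 5.97, 5.79 and 6.31 in SubQ tissue, and rose by 4.60 ± 0.20 SE on the log2 scale (limma adjusted p = 2.8e-11). Ms4a6d, of a macrophage membrane family, was at 9.31 to 11.06 (median 9.88) in tumors, against 5.11, 5.91 and 6.03 in SubQ tissue, and Ctsc, a cathepsin that activates granule proteases, at 9.13 to 10.81 (median 9.998) in tumors, against 5.57, 5.71 and 6.32 in SubQ tissue. They rose by 4.20 ± 0.30 SE (limma adjusted p = 4e-09) and 4.17 ± 0.29 SE (limma adjusted p = 2.5e-09). Sdc2, a heparan sulfate proteoglycan, was at 10.17 to 10.96 (median 10.50) in tumors, against 5.97, 6.18 and 7.05 in SubQ tissue, and rose by 4.09 ± 0.20 SE (limma adjusted p = 9e-11). Ext1, Ms4a6d, Ctsc and Sdc2 are given as examples chosen after their values were seen, and do not stand for the 85.

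At the other end, 216 genes of rank 90 or more in SubQ tissue had fallen in tumors, with provisional symbols and small RNA genes left out of this count, and they reached beyond the lists. Thrsp, a regulator of fat synthesis, was at 4.88 to 6.14 (median 5.46) in tumors, against 8.28, 7.61 and 7.48 in SubQ tissue, and Agt, the angiotensinogen that fat also makes, at 5.20 to 6.10 (median 5.62) in tumors, against 7.45, 7.29 and 6.96 in SubQ tissue. They fell by 2.32 ± 0.22 SE (limma adjusted p = 6.3e-08) and 1.62 ± 0.16 SE (limma adjusted p = 1e-07) on the log2 scale. Ccl19, a chemokine of lymphatic and stromal cells, was at 6.98 to 8.33 (median 7.78) in tumors, against 9.12, 10.15 and 9.54 in SubQ tissue, and Cd300lg, a receptor of capillary endothelium, at 5.20 to 5.67 (median 5.43) in tumors, against 7.43, 7.02 and 6.75 in SubQ tissue. They fell by 1.97 ± 0.27 SE (limma adjusted p = 4.7e-06) and 1.64 ± 0.14 SE (limma adjusted p = 1.8e-08). Among muscle and skin genes outside the lists, Apobec2 fell by 2.58, Cmya5 by 2.08, Lce1c by 2.27 and Zfp750, a regulator of epidermal differentiation, by 1.85. These 8 were chosen after their values were seen, and all but Apobec2 and Cmya5 held.

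Few of the named genes differed between the 4 tumor lines past the test. The moderated F test among lines, over the 12 tumors, called 1010 of 19937 genes (5.07%) and 7 of the 126 named genes, which is near that share. Nes was at 8.02, 7.90 and 7.85 in the tumors of line 59, and at 5.63 to 6.91 in the other 9 (limma adjusted p = 0.0083). Sox2 was at 7.10, 7.66 and 6.64 in line 59 and averaged 6.11 in line 123, 5.02 in line 31 and 4.48 in line 1 (limma adjusted p = 0.014). The SubQ arrays lay at 4.61, 5.41 and 5.70 for Nes and at 6.06, 5.68 and 5.91 for Sox2, so line 59 was above them and line 1 was below them for Sox2. H2-Aa, a class II chain of antigen-presenting cells, averaged 8.18 in line 1, against 10.13, 10.27 and 9.50 in lines 31, 59 and 123 and 6.93, 6.55 and 6.69 in SubQ tissue (limma adjusted p = 0.010). S100a9 averaged 8.62 in line 1, 6.69 in line 31, 4.79 in line 59 and 5.09 in line 123 (limma adjusted p = 0.026). The neutrophil list had a median rank of 36.9 to 48.1 in the tumors of line 1 and of 15.2 to 30.4 in the other 9. Fbln2, Myof and Psmb4 were the other 3, with line means that differed by 2.18, 1.13 and 0.98. Of these 3, Fbln2 was lowest in line 31, Myof in line 1 and Psmb4 in line 123.

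**Figure D5:**
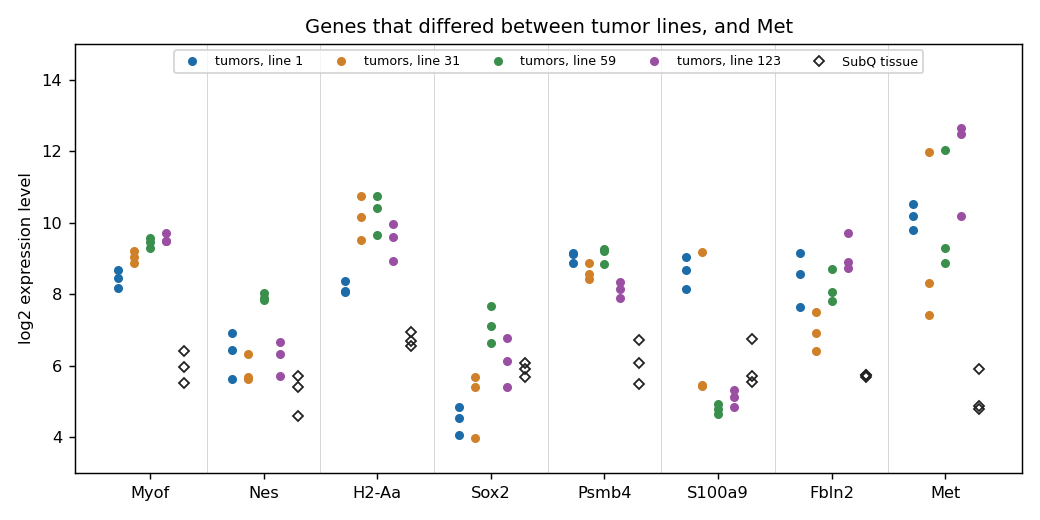
Log2 expression level (vertical axis) of the 7 named genes that differed between tumor lines, and of Met, 1 point per array, coloured by tumor line, with SubQ tissue as open diamonds to the right. Nes and Sox2 are highest in line 59, S100a9 is highest in line 1 and 1 tumor of line 31, H2-Aa is lowest in line 1, and Met varies within lines 31, 59 and 123.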

How the data were processed

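The authors deposited 1 table of log2 values with a column for each sample. The submitters' processing notes name RMA, a method that background-corrects, normalizes and summarizes probes, together with the programs GCOS and Affymetrix Expression Console, without versions or roles. The genome build is not given in the sources used here. Per the labels' protocols, total RNA was extracted with Trizol and 100 ng was labelled with biotin. Of 34760 probe sets, the platform annotation gave 21640 one symbol, 1321 several and 11799 none; probe sets with several or none were left out. The remaining probe sets covered 19937 genes, and for 954 genes with several probe sets the one with the highest mean over all 27 arrays was used.

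Groups were taken from the titles. limma 3.58.1 (R 4.3.3) was fitted over the 15 tissue arrays, tumors against SubQ, on the log2 levels and on normal scores of the within-array ranks, with Benjamini-Hochberg adjustment over all genes at 0.05. The number of arrays limits the precision. Differences between tumor lines were tested with limma's moderated F test over the 12 tumors. The fits were run on simulated data, with the same spread in both groups and with the own spread of each group. Limits to pass were set for the same spread only, so the unequal spread of these arrays was not covered by them. Tables, motif counts and plots were made with Python 3.11.15, numpy 2.4.6, pandas 2.3.3, scipy 1.17.1 and matplotlib 3.10.9.

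Named genes were the 12 largest increases and 12 largest decreases in rank percentile among genes that rose or fell with a rank of 90 or more in the higher group, leaving out provisional symbols and small RNA genes, up to 4 members of each list that rose or fell, and fixed markers, 126 in all. Other members are named to account for their list, after their values were seen. The members and the 26 lists (542 genes, 505 measured) were chosen with earlier results of these data known. Alternatives were other probe set rules, filters, variance models, scalings, tumor line as a fixed or random effect, the replicate number as a block, and leaving out arrays or lines. The centring on genes that all cells use and the span scale were added after seeing the data. Cell cultures were not analysed here.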

Additional observations from a re-analysis of the deposited data

Results flagged for a closer look

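Of the 126 named genes, 7 differed between the tumors of the 4 lines in limma's moderated F test over the 12 tumors, adjusted over all 19937 genes. That count is near the share over all genes, of which the test called 1010 (5.07%). The line means of Myof differed by 1.13 on the log2 scale (limma adjusted p = 0.00397). Those of Nes differed by 2.04 (limma adjusted p = 0.00825). For H2-Aa the line means differed by 2.09 (limma adjusted p = 0.0103), with the lowest mean in line 1. For Sox2 they differed by 2.66 (limma adjusted p = 0.0142), with the highest mean in line 59. Psmb4 had line means that differed by 0.98 (limma adjusted p = 0.0147). S100a9 had the widest range of line means among the 7, at 3.84 (limma adjusted p = 0.0256), and within line 31 its tumors were at 5.43, 5.45 and 9.19. Fbln2 had line means that differed by 2.18 (limma adjusted p = 0.0303).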

How the results depend on the processing

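The tumors and the SubQ tissue differed in signal range, so counts of calls depended on the scaling. On the log2 scale 6121 genes were called higher in tumors and 9135 lower; the higher count was 196 with arrays centred on the genes that all cells use and 2994 on the span scale, and the lower count was 18481 under that centring, 5762 with arrays divided by their SD, 4299 with an added 2-fold threshold and 3954 among genes with a higher group mean above the median. On the rank scale, group weights gave 1631 higher and 1774 lower. For calls on both scales without overlap, the higher count was 1511 with group weights, 85 under the centring and 913 on the span scale, and the lower count was 1501 with group weights and 1890 with the 2-fold threshold. Leaving out single arrays gave 2563 to 3496 higher and 2868 to 4173 lower on both scales, 5667 to 6173 and 8517 to 9093 on the log2 scale, and 5133 to 5687 and 6181 to 6751 on the rank scale. Among lists, 13 splicing genes rose and 5 neuron genes fell without SubQ replicate 3. Tumors of a line had a fitted correlation of 0.38 on the log2 scale and 0.77 on the rank scale. With tumor line as a random effect, the rank scale called 3739 genes higher and 4295 lower, in place of 5313 and 6409. Calls on both scales without overlap were then 2498 higher and 2681 lower. The replicate number as a block gave 2557 higher and 2851 lower. The numbers do not pair the samples: over 30 pairs with the same number the median correlation of deviations was -0.021, with 3 of them over 0.1.

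The centring lowered every difference by 2.71, so that 2047 of the 2557 genes that rose had a difference under 0 there, and any increase printed here that is smaller than this drop turns round. For the results recomputed under every setting, those that changed sign were as follows, and the cause was not tested. Under the centring, values were -0.71 for Acaa2, -0.90 for Acadm, -1.05 for Adam12, -0.19 for Axl, -1.79 for B2m, -0.16 for Cd44, -1.20 for Col1a1, -0.043 for Creld2, -1.12 for Dut, -0.53 for Emcn, -0.26 for Fbln2, -0.23 for Hgf, -1.63 for Itgb2, -0.36 for Kif11, -0.85 for Kif23, -1.24 for Mki67, -0.58 for Mpeg1, -0.32 for Myl9, -1.36 for Nes, -0.74 for P4ha2, -0.73 for Pdgfrb, -0.24 for Pdia6, -1.05 for Pecam1, -0.15 for Pfkp, -0.42 for Plat, -0.52 for Pola1, -0.083 for Psmb4, -0.61 for Ptbp1, -0.48 for Runx1, -2.41 for S100a9, -1.43 for Slc25a20, -0.86 for Snrpa1, -0.42 for Srsf6, -0.28 for Tbp and -0.56 for Tpx2. In units of the span scale, values were -1.04 for Actb, -2.72 for B2m, -0.32 for Col1a1, -0.15 for H2-Aa, -0.72 for Ifitm3, -0.24 for Mki67, -0.24 for S100a9 and -1.14 for Vim. There, list medians relative to all genes were -0.0095 for ER folding, -0.093 for antigen presentation, -0.0020 for growth factors, -0.028 for fatty acid oxidation, -0.23 for mural cells, 0.026 for neurons, 0.20 for neutrophils and mast cells, -0.36 for resident fibroblasts, -0.73 for ribosomal proteins and -0.22 for splicing. B2m was at -2.03 after division by the SD and at -0.43 after quantile normalization. The mural list was at -0.15 and -0.37 and the fibroblast list at -0.18 and -0.44 under these. Among genes with a higher group mean above the median, list medians were -0.051 for endothelium, -0.17 for mural cells and 0.19 for neurons. Without the tumors of line 1, Krt14 was at 0.18, S100a9 at -0.47 and Sox2 at 0.20, and without those of line 31 Sox2 was at 0.024.

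Only 5620 of 19937 genes in SubQ tissue averaged above the 95th percentile of receptor genes, which limits the size of an increase from low levels there, and of a decrease where SubQ tissue was not above it.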
